A study of Homo sapiens with 10 samples.

Results

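The genes of the ATF4 and unfolded-protein responses are described here in lung cancer cells in which a mutant p53 was knocked down. The list was set by name and holds 36 genes, of 57736 gene rows in the deposited table, and each of the 36 was found there by its symbol and Ensembl ID. It has 21 ATF4 and amino acid genes, which are ATF4 itself and genes of amino acid supply and stress that ATF4 is known to act on, and 15 endoplasmic reticulum genes, which are XBP1 and genes of protein folding and disposal. All 36 passed the filter on low counts.

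RNA was sequenced in 10 libraries from 3 human lung cancer lines, each with its own p53 mutation. The p53 siRNA groups were NCI-H2087 cells with p53 V157F (n = 2 libraries), NCI-H441 cells with p53 R158L (n = 2) and NCI-H2110 cells with p53 R158P (n = 1), all transfected with an siRNA against p53. Their control groups were the same lines transfected with a control siRNA, with n = 2, n = 2 and n = 1. Every cell carried a mutant p53, and since each mutation occurs in a single line, line and mutation cannot be told apart. Although the sample titles speak of a knockout, the extraction protocol names siRNA transfection, and the treatment is called a knockdown here; its duration is not given in the sources used here. The question is how transcripts of these 2 stress responses stood with p53 siRNA, in each line.

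ATF4 is a transcription factor whose protein is made when the initiation factor eIF2 is phosphorylated by kinases that sense amino acid shortage (EIF2AK4), unfolded protein in the endoplasmic reticulum (EIF2AK3) or other stress. It switches on amino acid transporters, enzymes of asparagine, serine and cysteine synthesis, and stress genes such as DDIT3 and TRIB3. The unfolded-protein response has other branches, in which ERN1 splices the XBP1 transcript and ATF6 is cut to an active fragment, and these switch on chaperones and the machinery that returns misfolded protein to the cytosol. Gene counts hold transcript amounts only: they show neither the amount of ATF4 protein nor how much XBP1 was spliced.

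The promoters of the 2 arms held different known elements. RefSeq promoters (GRCh38.p14, 250 bases before to 50 after the start) were matched for 32 of the 36 genes, 17 ATF4 and amino acid genes and 15 endoplasmic reticulum genes. They were searched on both strands for the C/EBP-ATF response element (TGATGNAA), for the ER stress element (CCAAT and CCACG with 9 bases between), for its second form (ATTGG and CCACG with 1 base between) and for the UPR element (TGACGTGG). The following stretches carry a match in capitals, with 20 bases on either side, read 5′ to 3′ on the gene's own strand; a match on the other strand appears as its complement. The first 3 hold the C/EBP-ATF response element and the others an ER stress element of either form.
ASNS, chr7:97872449-97872496, minus strand: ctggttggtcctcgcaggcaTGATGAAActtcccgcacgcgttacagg
CHAC1, chr15:40953242-40953289, plus strand: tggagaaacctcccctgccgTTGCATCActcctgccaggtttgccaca
HERPUD1, chr16:56931946-56931993, plus strand: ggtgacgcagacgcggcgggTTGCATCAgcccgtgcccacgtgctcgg
HERPUD1, chr16:56932005-56932055, plus strand: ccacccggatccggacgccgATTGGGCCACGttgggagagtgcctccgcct
XBP1, chr22:28800583-28800641, minus strand: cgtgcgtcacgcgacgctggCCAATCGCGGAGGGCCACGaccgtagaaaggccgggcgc
HSPA5, chr9:125241371-125241429, minus strand: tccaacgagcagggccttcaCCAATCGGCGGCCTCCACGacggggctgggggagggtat
HSP90B1, chr12:103930196-103930254, plus strand: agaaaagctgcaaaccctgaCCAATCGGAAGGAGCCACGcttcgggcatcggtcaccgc
SDF2L1, chr22:21642094-21642144, plus strand: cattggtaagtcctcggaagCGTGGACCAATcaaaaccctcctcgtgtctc

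The C/EBP-ATF response element was found in 4 of the 17 promoters of the ATF4 arm (ASNS, CHAC1, SLC3A2 and SLC7A1) and in 1 of 15 of the endoplasmic reticulum arm (HERPUD1), against 3.67% of 27305 promoters of the same length. The ER stress element was found in none of the 17 and in 5 of the 15 (XBP1, HSPA5, HSP90B1, CALR and CRELD2), against 0.0806% of all promoters. Its second form was in none of the 17 and in 3 of the 15 (HERPUD1, SDF2L1 and HYOU1), against 0.0549% of all. The UPR element was in none of the 17 and in 1 of the 15, HYOU1, where it overlaps the second form, against 0.795% of all. HERPUD1, which helps dispose of misfolded protein, was the only gene of the list with both the C/EBP-ATF response element and an ER stress element in this window. These are matches of letters and were not tested as binding sites, and several of these genes, such as ASNS and HSPA5, are known for such elements.

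The libraries held between 18336672 and 25810934 counts. Markers of other cell types were low next to epithelial ones in every library: the summed level of the 5 immune genes ran from 0.214 to 7.63 CPM (counts scaled to library size), that of the 2 endothelial genes from 0.217 to 1.56 CPM and that of the 5 fibroblast genes from 12.3 to 68.2 CPM, while the 5 epithelial genes summed to between 2367 and 8914 CPM. The 4 lung epithelial genes summed to 28.0 CPM in the p53 siRNA library and 56.6 CPM in the control library of NCI-H2110, and to between 219.8 and 1573 CPM in the other lines. In NCI-H2087 these markers moved with the siRNA: the epithelial genes summed to 8914 and 8822 CPM in p53 siRNA libraries, against 4035 and 3694 CPM in control libraries, and the lung epithelial genes to 383 and 219.8 CPM in p53 siRNA libraries, against 953 and 1039 CPM in control libraries; their part in the NCI-H2087 results was not tested. No marker measured was at 0 in every library. With 2 libraries per group and no statement that they were separate cultures, p-values measure the spread between these samples. That spread was estimated in part from other genes, and the libraries can differ more for a single gene.

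The 2 p53 siRNA libraries of NCI-H2087 stood apart from each other in the ATF4 arm, and this touches every NCI-H2087 result that follows. In NCI-H2087 p53 siRNA cells, replicate 2 had a higher level than replicate 1 for 21 of the 21 ATF4 and amino acid genes, by a median of 1.52 log2, and by at least 2-fold for 13 of them, against 2.44% of all 12329 genes compared and a median over those genes of 0.01. The 15 endoplasmic reticulum genes had a median of 0.06 between the same libraries, and none was 2-fold higher. In the other groups with 2 libraries, the median of the ATF4 arm lay between 0.10 and 0.19 log2. In NCI-H2087 control cells 1 of 21 genes was at least 2-fold higher in replicate 2, against 1.19% of all genes. In NCI-H441 it was 2 of 18 in p53 siRNA cells, against 1.72% of all genes, and none of 18 in control cells, against 1.06%. The 2 libraries had similar depth, 25115074 counts in replicate 1 and 25270810 in replicate 2. The part of their lung epithelial sums, 383 and 219.8 CPM, in the difference was not tested. In bulk RNA, fewer cells with a transcript and less of it per cell cannot be told apart.

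**Figure D1:**
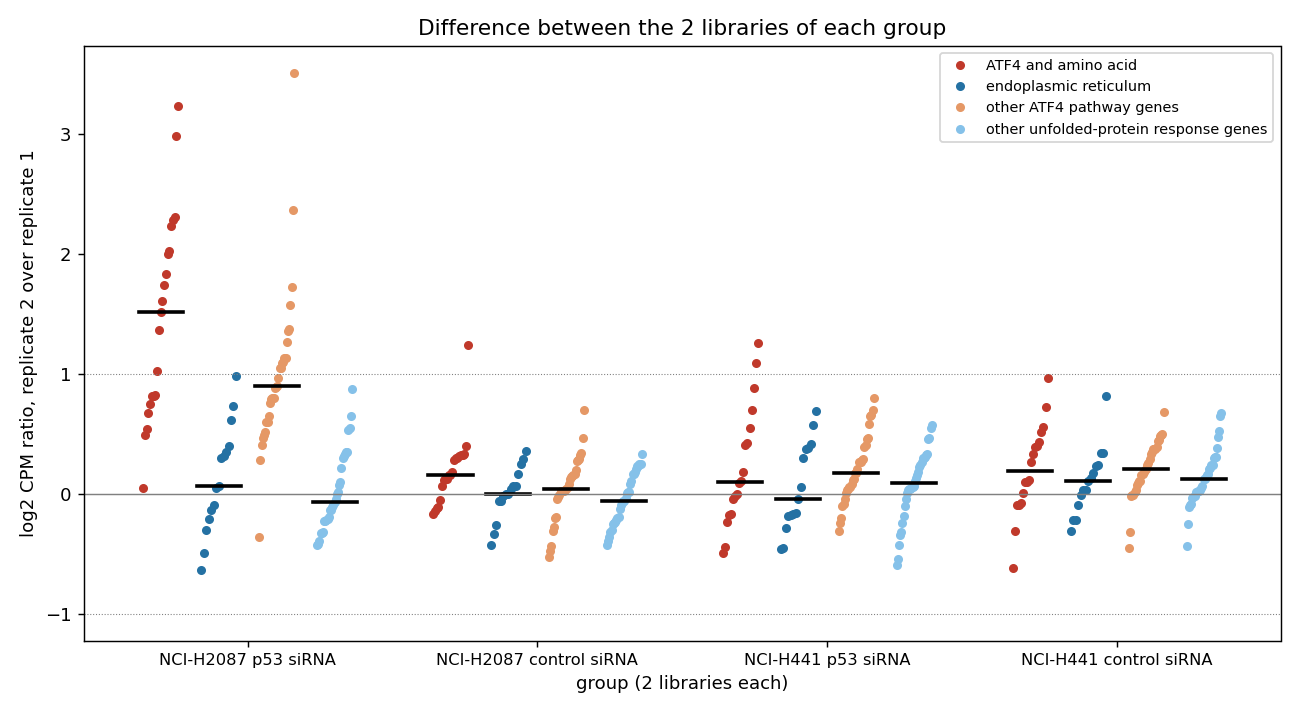
Log2 ratio of CPM in replicate 2 over replicate 1 (vertical axis) for each gene of 4 lists (colours) in the 4 groups that have 2 libraries; each point is a gene and the black bar is the median. In NCI-H2087 p53 siRNA cells the ATF4 and amino acid genes sit at a median of 1.52 and the endoplasmic reticulum genes at 0.06.

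The genes that differed most between those libraries were NUPR1 (3.24 log2), a small stress-induced nuclear protein, ASNS (2.99), which makes asparagine, CHAC1 (2.31), which breaks down glutathione, PHGDH (2.28), the entry enzyme of serine synthesis, and CTH (2.23), which makes cysteine. VLDLR, a lipoprotein receptor, differed least (0.05). Of the endoplasmic reticulum genes, HERPUD1 (0.98) and DNAJB9 (0.73) were the highest and CRELD2 (-0.64) the lowest. Of 30 other ATF4 pathway genes compared, 13 were at least 2-fold higher in replicate 2, with a median of 0.90, and of 31 other unfolded-protein response genes none was, with a median of -0.07. Picked after their values were seen, GDF15, a secreted stress hormone, had 2.31 and 27.2 CPM in the 2 NCI-H2087 p53 siRNA libraries (replicate 1 first, as in every pair of values below), against 3.92 and 6.41 CPM in control libraries, and SESN2, a sestrin that restrains mTORC1, had 5.73 and 29.9 CPM in p53 siRNA libraries, against 7.17 and 7.80 CPM in control libraries. Of the 12 kinases, phosphatase genes and stress sensors, 1 was 2-fold higher in replicate 2, the sensor ERN1, at 11.5 and 42.2 CPM in p53 siRNA libraries, against 7.53 and 10.4 CPM in control libraries.

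In NCI-H2087, 1 of the 36 genes passed the test with p53 siRNA (edgeR quasi-likelihood, Benjamini-Hochberg adjusted p below 0.05 over 17978 genes), against 8.68% of all genes, so the list's share was below that of the genes at large. At an unadjusted p below 0.05 there were 6 of the 36, against 4553 of all 17978 genes. The gene was DDIT4, which restrains the growth kinase mTORC1. It had 15.6 and 52.5 CPM in the 2 p53 siRNA libraries, against 6.70 and 7.46 CPM in the 2 control libraries. Both p53 siRNA libraries were above both control libraries. DDIT4 rose by 2.26 ± 0.59 log2 (SE; adjusted p = 0.0443). The value was 1.14 without p53 siRNA replicate 2 (adjusted p = 0.245), and adjusted p was 0.199 without control replicate 1 and 0.236 without control replicate 2, so the call needs each of these libraries.

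Libraries of the same replicate number deviated together, and with the replicate number as a block 6 of the 36 passed, 5 higher and 1 lower, against 12.8% of all genes higher and 12.6% lower. The 5 were DDIT4 (2.07 ± 0.28 log2, adjusted p = 7.24e-05), DDIT3, the pro-death factor CHOP (0.82 ± 0.25, adjusted p = 0.0243), TRIB3, a pseudokinase that restrains AKT and ATF4 (0.78 ± 0.27, adjusted p = 0.0492), and the endoplasmic reticulum proteins SDF2L1 (0.86 ± 0.27, adjusted p = 0.0272) and MANF (0.40 ± 0.14, adjusted p = 0.0422). XBP1 was the 1 lower gene (-0.56 ± 0.14, adjusted p = 0.00928). The share that rose was close to that of all genes, and the share that fell was below it. The blocked fit had 2 residual degrees of freedom and drew on the spread of other genes. Its SE and p can therefore understate how far the pairs of a single gene were apart, which for DDIT4 were 1.16 and 2.73 log2.

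For DDIT3 and TRIB3 the 2 p53 siRNA libraries did not move alike. DDIT3 had 17.9 and 54.7 CPM in p53 siRNA libraries, against 16.9 and 19.2 CPM in control libraries. TRIB3 had 39.8 and 163 CPM in p53 siRNA libraries, against 42.6 and 53.4 CPM in control libraries. Replicate 1 lay within the control range for DDIT3 and just below it for TRIB3, and replicate 2 was above both controls for each. Without replicate 2 the log2 change of DDIT3 was -0.017 and that of TRIB3 -0.27; without replicate 1 they were 1.60 (adjusted p = 0.0114) and 1.76 (adjusted p = 0.0224).

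Some of the amino acid genes showed a split as well. ASNS had 66.5 and 529 CPM in p53 siRNA libraries, against 128 and 157.5 CPM in control libraries. The p53 siRNA libraries therefore lay on either side of the control libraries, and the change, 1.06 ± 0.66 log2, did not pass the test (adjusted p = 0.356). With p53 siRNA replicate 1 alone ASNS was lower than control, with a log2 change of -1.10 (adjusted p = 0.0426), and with replicate 2 alone it was higher, with a log2 change of 1.89 (adjusted p = 0.00319); in these fits the lone library is assumed to vary like the other groups. CTH had 22.1 and 104 CPM in p53 siRNA libraries, against 33.6 and 37.4 CPM in control libraries. PCK2, the mitochondrial enzyme that makes phosphoenolpyruvate, had 15.6 and 55.9 CPM in p53 siRNA libraries, against 30.7 and 37.7 CPM in control libraries. The p53 siRNA libraries of both genes also lay on either side of the control libraries.

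Over the whole ATF4 arm, 15 of 21 genes were lower in p53 siRNA than in control between the replicate 1 libraries of NCI-H2087 (median -0.23 log2), and 21 of 21 were higher between the replicate 2 libraries (median 0.63). Without replicate 2 of the p53 siRNA arm, 2 of the 36 genes passed, both lower, ASNS and PCK2 (-1.13, adjusted p = 0.0410), against 3.57% of all genes in either direction. Without replicate 1, 9 passed, all higher and all of the ATF4 arm: ASNS, CHAC1, TRIB3, DDIT3, DDIT4, PSAT1, MTHFD2, SLC7A5 and CTH, against 6.12% of all genes in either direction. ASNS was in both sets, with opposite signs. DDIT4 was above control between both pairs, by 1.16 and 2.73 log2.

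**Figure D2:**
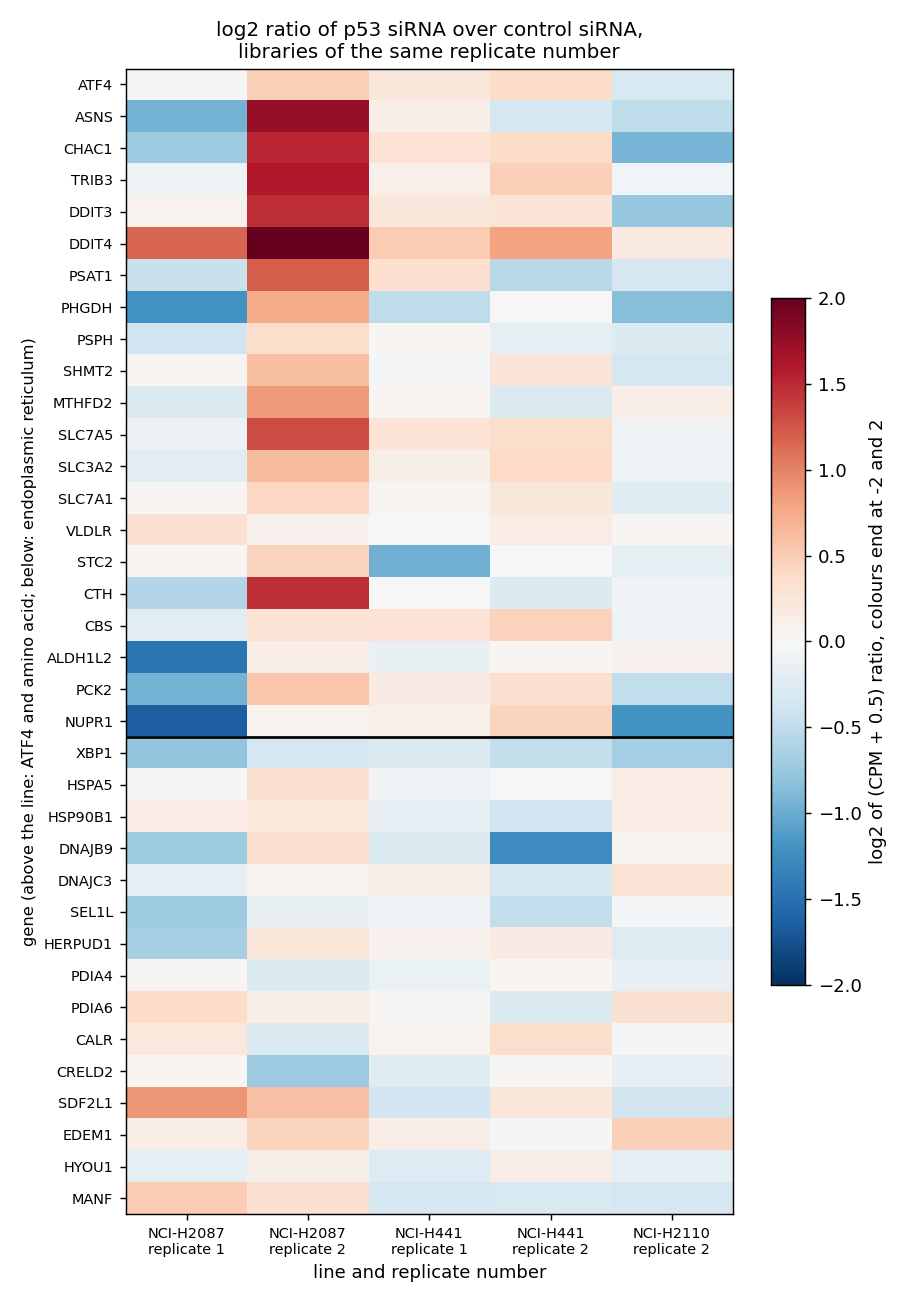
Log2 ratio of p53 siRNA over control siRNA between libraries of the same line and replicate number (columns) for the 36 genes (rows), with 0.5 CPM added to each level and colours that end at -2 and 2. In the first column 15 of the 21 ATF4 and amino acid genes are negative, and in the second column 21 of 21 are positive.

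The serine and folate enzymes did not pass the test. PHGDH had 30.1 and 147 CPM in p53 siRNA libraries, against 70.6 and 87.7 CPM in control libraries of NCI-H2087. PSAT1, the next enzyme of serine synthesis, had 138 and 396 CPM in p53 siRNA libraries, against 187 and 169.8 CPM in control libraries. For both, replicate 1 was below and replicate 2 above the controls. ALDH1L2, a mitochondrial folate enzyme, had 36.5 and 146 CPM in p53 siRNA libraries, against 101 and 133 CPM in control libraries, and had the most negative fitted change of the arm, -0.36 ± 0.52 log2 (adjusted p = 0.726). Its replicate 2 libraries were almost level and its replicate 1 libraries were far apart. MTHFD2, another mitochondrial folate enzyme, had 115 and 233 CPM in p53 siRNA libraries, against 140.2 and 129.7 CPM in control libraries.

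The amino acid carriers did not pass either. SLC7A5, the light chain of the large neutral amino acid transporter, had 178 and 461 CPM in p53 siRNA libraries, against 193 and 186 CPM in control libraries. SLC3A2, its heavy chain, had 75.7 and 127 CPM in p53 siRNA libraries, against 88.8 and 81.9 CPM in control libraries. Replicate 1 of each was below both control libraries and replicate 2 above both. SLC7A1, a carrier of cationic amino acids, had 64.6 and 90.5 CPM in p53 siRNA libraries, against 62.6 and 67.7 CPM in control libraries. ATF4 itself had 251 and 443 CPM in p53 siRNA libraries, against 255 and 319 CPM in control libraries, a change of 0.27 ± 0.26 log2 (adjusted p = 0.55). The ATF4 transcript thus differed less between its p53 siRNA libraries, 0.82 log2, than ASNS, CHAC1 or CTH did.

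**Figure D3:**
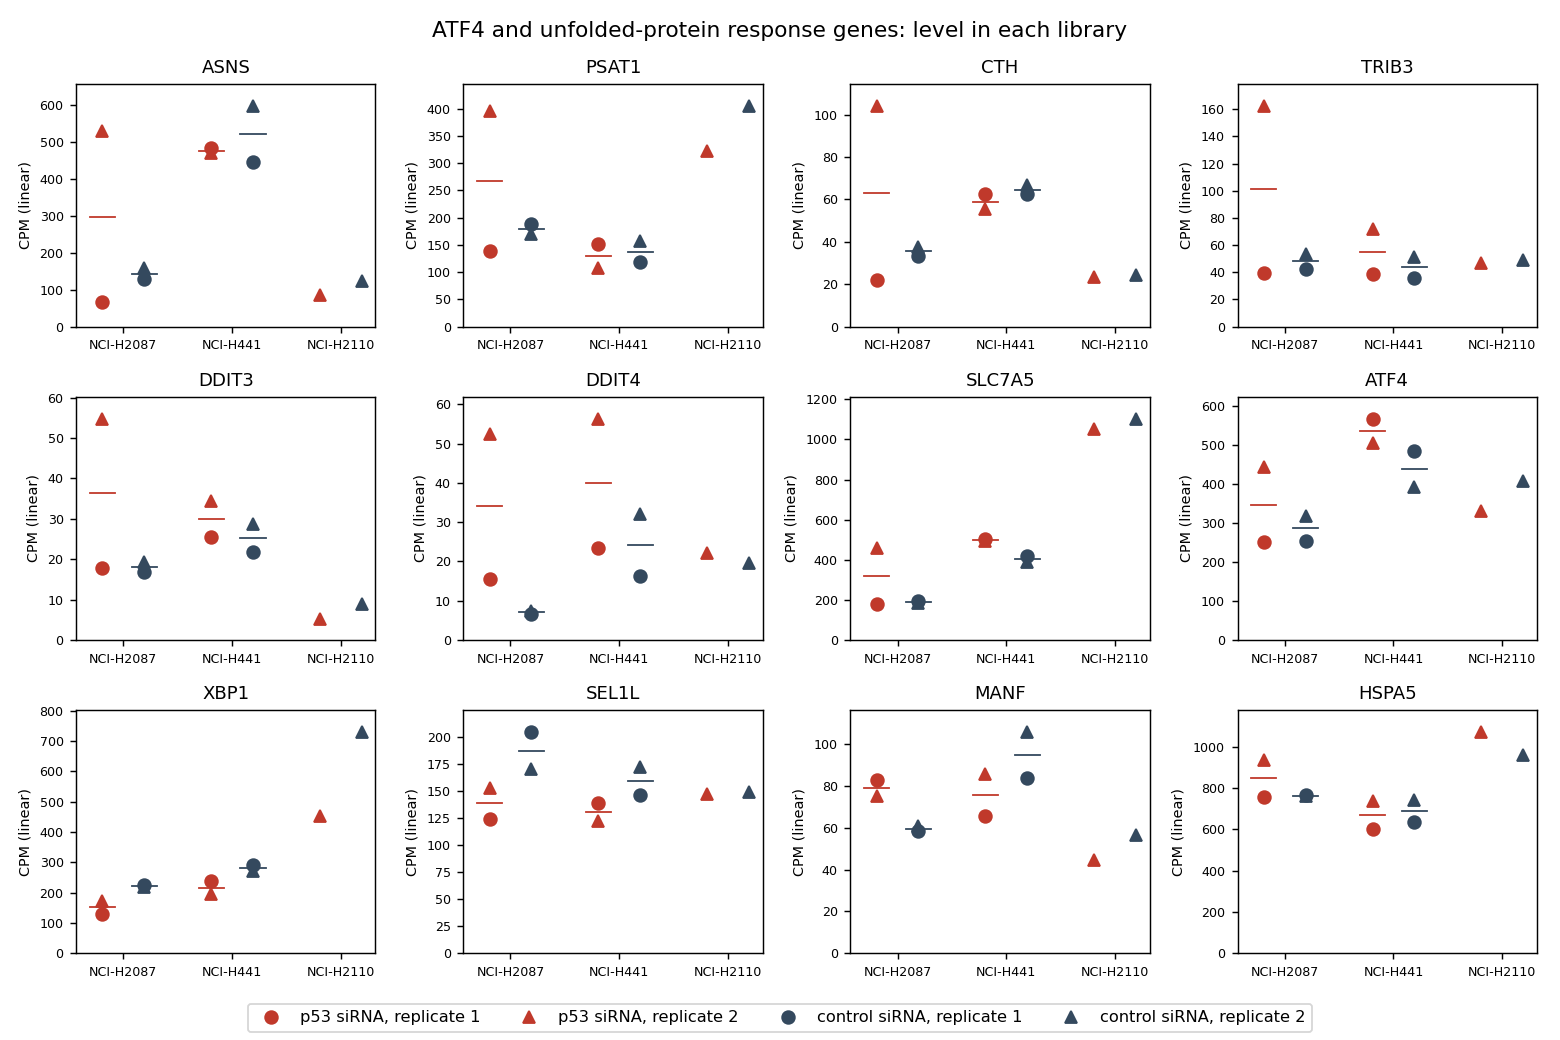
Level in CPM (linear axis from 0) of 12 genes in each of the 10 libraries, by line, with p53 siRNA in red left of control siRNA in dark blue; circles are replicate 1, triangles replicate 2 and bars the mean of 2 libraries. In NCI-H2087, ASNS is at 66.5 and 529 CPM in the p53 siRNA libraries, on either side of the control libraries, while XBP1 is lower in both p53 siRNA libraries of NCI-H2087 and of NCI-H441.

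The endoplasmic reticulum genes differed less between replicates, and none passed without the block. In NCI-H2087, 3 of the 15 had an unadjusted p below 0.05, against 4553 of all 17978 genes. The median of the 15 was -0.02 log2, against -0.03 over all genes. The summed level of the 15 was 4393 and 4505 CPM in p53 siRNA libraries, against 4299 and 4368 CPM in control libraries, whereas that of the 21 genes of the ATF4 arm was 1446 and 3624 CPM in p53 siRNA libraries, against 1759 and 1943 CPM in control libraries. These sums are dominated by the abundant genes. The fitted changes ran from -0.55 for XBP1 to 0.86 for SDF2L1 in the endoplasmic reticulum arm, with 6 of 15 positive, and from -0.36 for ALDH1L2 to 2.26 for DDIT4 in the ATF4 arm, with 19 of 21 positive. The number positive was 2 of 21 without p53 siRNA replicate 2 and was 16 of 21 with the block.

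XBP1, the transcription factor of the ERN1 branch, had 130.5 and 172 CPM in p53 siRNA libraries of NCI-H2087, against 226 and 217 CPM in control libraries. In NCI-H441 it had 237 and 195 CPM in p53 siRNA libraries, against 290.0 and 271 CPM in control libraries. The single libraries of NCI-H2110 had 454 CPM with p53 siRNA, against 729 CPM with control siRNA. Every p53 siRNA library was thus below every control library of its line. The change was -0.55 ± 0.18 log2 in NCI-H2087 (adjusted p = 0.089), -0.38 ± 0.18 in NCI-H441 (adjusted p = 0.933) and -0.68 in NCI-H2110, and the change common to the lines was -0.51 ± 0.12 (adjusted p = 0.103), which did not pass. DESeq2 called XBP1 in NCI-H2087 (adjusted p = 0.0498) and in the common change (adjusted p = 0.0065). In these comparisons DESeq2 called 2133 and 609 of all 17978 genes.

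SEL1L, a scaffold of the ubiquitin ligase that clears misfolded protein, had 124 and 153 CPM in p53 siRNA libraries of NCI-H2087, against 204 and 170.1 CPM in control libraries. In NCI-H441 it had 139 and 123 CPM in p53 siRNA libraries, against 146 and 173 CPM in control libraries, and in NCI-H2110 it had 147 CPM with p53 siRNA, against 149 CPM with control siRNA. The groups did not overlap, but the NCI-H2110 values were nearly level, and the common change was -0.29 ± 0.12 log2 (adjusted p = 0.314). XBP1 and SEL1L were the 2 of 15 endoplasmic reticulum genes with all p53 siRNA libraries below all control libraries in each of the 3 lines, as for 3.37% of all genes; they were singled out after their values were seen. None of the 21 genes of the ATF4 arm did so.

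MANF, a secreted protein induced by folding stress, had 82.7 and 75.1 CPM in p53 siRNA libraries of NCI-H2087, against 58.3 and 60.8 CPM in control libraries. In NCI-H441 it had 65.7 and 85.5 CPM in p53 siRNA libraries, against 83.7 and 106 CPM in control libraries. Its p53 siRNA libraries were both above control in NCI-H2087, while in NCI-H441 the groups overlapped and each p53 siRNA library was below the control library of its number. SDF2L1, a partner of an endoplasmic reticulum co-chaperone, had 3.85 and 3.59 CPM in p53 siRNA libraries of NCI-H2087, against 1.86 and 2.22 CPM in control libraries, again without overlap. It is a low gene, and its change was 0.86 ± 0.31 log2 (adjusted p = 0.118 without the block). In NCI-H2087, 4 of the 15 genes had all p53 siRNA libraries above control (HSP90B1, PDIA6, SDF2L1 and MANF) and 2 had all below (XBP1 and SEL1L), against 25.4% and 30.4% of all genes; the ATF4 arm had 2 above (DDIT4 and VLDLR) and none below.

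The abundant chaperones did not pass. HSPA5, the main chaperone of the endoplasmic reticulum, had 756 and 937 CPM in p53 siRNA libraries of NCI-H2087, against 764 and 761 CPM in control libraries. HSP90B1, its partner GRP94, had 954 and 984 CPM in p53 siRNA libraries, against 865 and 852 CPM in control libraries. HERPUD1 had 87.3 and 172 CPM in p53 siRNA libraries, against 139 and 146 CPM in control libraries, so that its replicates again lay on either side of the controls. CALR, a calcium-binding chaperone of glycoproteins, had 1169 and 829 CPM in p53 siRNA libraries, against 1012 and 1010.4 CPM in control libraries. Its order was the reverse of that of HERPUD1, with replicate 1 above and replicate 2 below the controls.

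In NCI-H441, none of the 36 genes passed the test, with or without the block, against 0.00556% of all genes (1 gene) without it and 0.417% with it. At an unadjusted p below 0.05 there was 1 of 36 without the block and 7 with it, against 796 and 2394 of all 17978 genes. The medians were 0.14 log2 in the ATF4 arm and -0.08 in the endoplasmic reticulum arm, against 0.01 over all genes. The ATF4 arm here includes PHGDH, STC2 and ALDH1L2, which had no more than 17 counts in any NCI-H441 library. Their fitted changes are not measured folds. With them, the changes of this arm ran from -4.34 to 0.72. The changes of the endoplasmic reticulum arm ran from -0.83 for DNAJB9 to 0.21 for CALR. Among genes of at least 5 CPM on average, DDIT4 had the largest positive change, with 23.4 and 56.3 CPM in p53 siRNA libraries, against 16.4 and 32.0 CPM in control libraries (0.72 ± 0.55 log2, adjusted p = 0.933). Each p53 siRNA library was above the control library of its number, but the groups overlapped. DNAJB9, a co-chaperone that holds ERN1 in check, had the most negative change, with 20.2 and 18.1 CPM in p53 siRNA libraries, against 24.6 and 43.5 CPM in control libraries (-0.83 ± 0.31 log2, adjusted p = 0.933).

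The other NCI-H441 genes named by size were XBP1 and MANF, given above, with negative changes that did not pass, and CHAC1 and CBS on the positive side. CHAC1 had 13.6 and 13.6 CPM in p53 siRNA libraries, against 11.1 and 10.4 CPM in control libraries, and CBS, which makes cystathionine, had 39.3 and 28.9 CPM in p53 siRNA libraries, against 32.1 and 20.8 CPM in control libraries. ATF4 had 567 and 504 CPM in p53 siRNA libraries, against 486 and 391 CPM in control libraries. ASNS had 483 and 469 CPM in p53 siRNA libraries, against 445 and 598 CPM in control libraries. The ATF4 groups did not overlap and the ASNS groups did. In the ATF4 arm 5 of 21 genes had all p53 siRNA libraries above control (ATF4, CHAC1, SLC7A5, SLC7A1 and PCK2) and none had all below. In the other arm 1 of 15 was above (CALR) and 4 were below (XBP1, HSP90B1, DNAJB9 and SEL1L), against 17% of all genes in each direction.

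In NCI-H2110, with 1 library per arm and no test, 34 of the 36 genes had at least 50 counts in either library, and CHAC1 and STC2 did not. NUPR1 was the 1 gene past 2-fold, with 35.5 CPM with p53 siRNA, against 81.9 CPM with control siRNA, a log2 ratio of -1.20, against 1.49% of all genes past 2-fold. Of the 19 genes of the ATF4 arm measured, 15 had a negative ratio, with a median of -0.25 log2, against -0.03 over all genes, and of the 15 endoplasmic reticulum genes 9 were negative, with a median of -0.04. PHGDH (-0.91) and DDIT3 (-0.81) were next in size. PHGDH had 5.20 CPM with p53 siRNA, against 9.84 CPM with control siRNA, and DDIT3 had 5.11 CPM with p53 siRNA, against 9.01 CPM with control siRNA. All 3 belong to the ATF4 arm. EDEM1, which marks misfolded glycoproteins for disposal, had the largest positive ratio (0.48), with 53.6 CPM with p53 siRNA, against 38.4 CPM with control siRNA. PDIA6, a disulfide isomerase, had 500.0 CPM with p53 siRNA, against 403 CPM with control siRNA, and DNAJC3, a co-chaperone that restrains EIF2AK3, had 119 CPM with p53 siRNA, against 98.4 CPM with control siRNA.

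Across the 3 lines, none of the 36 genes passed the test of a common change, against 0.395% of all genes. At an unadjusted p below 0.05 there were 3, against 2553 of all 17978 genes. The median common change was 0.13 log2 in the ATF4 arm and -0.04 in the endoplasmic reticulum arm, against -0.02 over all genes. The test of the difference between the changes of NCI-H2087 and NCI-H441 also called none without the block, against 0.412% of all genes. There 2 of the 36 had an unadjusted p below 0.05, against 2380 of all 17978 genes. With the block it called 3, all more positive in NCI-H2087, against 8.92% of all genes: DDIT4 (1.40 ± 0.37 log2, adjusted p = 0.0287), MANF (0.73 ± 0.19, adjusted p = 0.0289) and STC2 (adjusted p = 0.046). STC2, a secreted glycoprotein, had 93.5 and 136 CPM in NCI-H2087 p53 siRNA libraries, against 91.2 and 99.2 CPM in control libraries, while NCI-H441 had 1 and 1 counts in p53 siRNA libraries, against 13 and 1 counts in control libraries, and 13 is the largest count behind its NCI-H441 change.

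The other genes of the pathways were read from lists set by name. Of 31 other ATF4 pathway genes measured, 2 rose and 1 fell in NCI-H2087; of 12 kinases, phosphatase genes and stress sensors 1 fell; and of 33 other unfolded-protein response genes 2 rose and 2 fell, against 8.68% of all genes called in either direction. These shares are near that of all genes. With the block, 5 rose and 2 fell, 2 rose and 3 fell, and 4 rose and 6 fell in the same order of lists, against 12.8% of all genes higher and 12.6% lower. Without the block, the 4 with the smallest p were ERO1A, SLC38A2, TXNDC11 and JDP2. ERO1A, the oxidase that feeds disulfide bond formation, had 249 and 187 CPM in p53 siRNA libraries, against 110.1 and 94.4 CPM in control libraries (1.09 ± 0.19 log2, adjusted p = 0.0102). SLC38A2, a carrier of neutral amino acids, had 849 and 1284 CPM in p53 siRNA libraries, against 434 and 543 CPM in control libraries (1.13 ± 0.21, adjusted p = 0.0132). TXNDC11, a thioredoxin-domain protein, had 57.3 and 55.6 CPM in p53 siRNA libraries, against 97.1 and 94.8 CPM in control libraries (-0.76 ± 0.15, adjusted p = 0.0144). JDP2, a repressor related to ATF3, had 10.6 and 18.4 CPM in p53 siRNA libraries, against 32.5 and 33.4 CPM in control libraries (-1.19 ± 0.25, adjusted p = 0.0187). In these 4 genes, both p53 siRNA libraries lay on the same side of the controls. Each call was lost, with the sign kept, when either control library was left out (adjusted p from 0.0605 to 0.134); SLC38A2 and TXNDC11 were also lost without p53 siRNA replicate 2, and JDP2 without replicate 1. The difference between the changes of NCI-H2087 and NCI-H441 called none of these genes without the block and 3 of 31, 3 of 12 and 5 of 33 with it, against 8.92% of all genes, with the smallest p for SLC38A2 (1.07 ± 0.19 log2, adjusted p = 0.00265), JDP2 (-1.33 ± 0.26, adjusted p = 0.0055), the signal peptidase subunit SPCS3 (1.09 ± 0.22, adjusted p = 0.00643) and ERO1A (0.88 ± 0.19, adjusted p = 0.0104). In NCI-H441 and in the common change none of the genes of these lists passed, and in NCI-H2110 none was past 2-fold.

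More of the genes passed between lines than between siRNAs, and the same held for all genes. Of 17978 genes, 7568 were called between control cells of NCI-H2087 and NCI-H441, against 1560 with p53 siRNA in NCI-H2087. In control cells, 19 of the 36 genes differed between NCI-H2087 and NCI-H441, 6 higher and 13 lower in NCI-H2087, against 22% of all genes higher and 20.1% lower. PHGDH had 70.6 and 87.7 CPM in NCI-H2087 control libraries (1369 and 2327 counts), against 5 and 0 counts in NCI-H441 control libraries (adjusted p = 0.000161), and the NCI-H441 p53 siRNA libraries had 0 and 0 counts. ALDH1L2 had 101 and 133 CPM in NCI-H2087, against 17 and 6 counts in NCI-H441 (adjusted p = 4.68e-05). STC2 had 91.2 and 99.2 CPM in NCI-H2087 (1768 and 2631 counts), against 13 and 1 counts in NCI-H441 (adjusted p = 3.68e-06). These 3 genes were thus at or near 0 in NCI-H441, and no fold is given.

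PSPH, the last enzyme of serine synthesis, was higher in NCI-H2087, at 72.8 and 76.3 CPM in its control libraries, against 27.6 and 34.8 CPM in those of NCI-H441 (1.25 ± 0.25 log2, adjusted p = 0.00331), as were SHMT2, at 142 and 155 CPM in NCI-H2087, against 51.2 and 55.5 CPM in NCI-H441 (1.48 ± 0.23, adjusted p = 0.000848), and CBS (1.75 ± 0.31, adjusted p = 0.00164). PSAT1, between PHGDH and PSPH in the pathway, was present in both lines and did not pass, with 187 and 169.8 CPM in NCI-H2087 control libraries, against 119 and 156 CPM in those of NCI-H441. The lower genes in NCI-H2087 included 7 of the ATF4 arm. ASNS had 128 and 157.5 CPM in NCI-H2087, against 445 and 598 CPM in NCI-H441 (-1.87 ± 0.68, adjusted p = 0.0492). DDIT4 had 6.70 and 7.46 CPM in NCI-H2087, against 16.4 and 32.0 CPM in NCI-H441 (-1.77 ± 0.58, adjusted p = 0.0342). The same NCI-H2087 control libraries enter its change with p53 siRNA, so these results are not independent. CHAC1, MTHFD2, SLC7A5, SLC3A2 and SLC7A1 were the others, between -1.58 and -0.67 log2. The 6 lower endoplasmic reticulum genes were SDF2L1 (-1.58 log2), CRELD2, DNAJB9, DNAJC3, PDIA4 and MANF (-0.67), and none of that arm was higher. Of the 19 calls, 8 held under every alternative run, PHGDH, STC2 and ALDH1L2 among them, and each of the other 11 was lost when at least 1 library was left out.

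NCI-H2110, over both siRNAs, was set against the mean of the other lines in a model of line and siRNA. There 14 of the 36 genes were higher and 12 lower, against 30.8% of all genes higher and 28.9% lower, and the comparison rests on 2 NCI-H2110 libraries. A call against the mean of the other lines does not mean that NCI-H2110 differed from each of them. SLC7A5 had 1052 and 1102 CPM in the p53 siRNA and control libraries of NCI-H2110, and between 178 and 503 CPM in the other lines (1.71 ± 0.25 log2, adjusted p = 7.23e-05). NUPR1 had 35.5 and 81.9 CPM in NCI-H2110, above all 8 libraries of the other lines (3.50 ± 0.51, adjusted p = 7.63e-05). XBP1 was also highest in NCI-H2110 (1.44 ± 0.14, adjusted p = 2.31e-06), as was VLDLR (1.42 ± 0.19, adjusted p = 3.84e-05). ALDH1L2, at 85.5 and 80.4 CPM, was close to the levels of NCI-H2087 and far above those of NCI-H441, and PHGDH, at 5.20 and 9.84 CPM, lay between those lines.

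Among the genes lower in NCI-H2110, EDEM1 had 53.6 and 38.4 CPM in the p53 siRNA and control libraries (-2.10 ± 0.22 log2 against the other lines, adjusted p = 5.6e-06). HERPUD1 had 34.9 and 42.0 CPM (-1.87 ± 0.25, adjusted p = 4.28e-05), and HYOU1, a chaperone of the HSP70 family, 55.7 and 63.0 CPM (-1.60 ± 0.18, adjusted p = 1.07e-05). DDIT3 (-1.87 ± 0.44, adjusted p = 0.00293) and CHAC1 (-2.51 ± 0.58, adjusted p = 0.00248) were lower as well. STC2 had 1 and 3 counts, but it was also near 0 in NCI-H441, with counts of 1 to 13, so its difference comes from NCI-H2087. The folding genes HSP90B1 (0.78 ± 0.15), PDIA6 (0.82 ± 0.15), DNAJC3 (1.23 ± 0.16) and HSPA5 (0.46 ± 0.15) were higher, so the endoplasmic reticulum arm was divided, with 6 genes higher and 5 lower in this line. Of the 26 calls, 15 held under every alternative run, and each of the other 11 was lost when at least 1 library was left out.

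**Figure D4:**
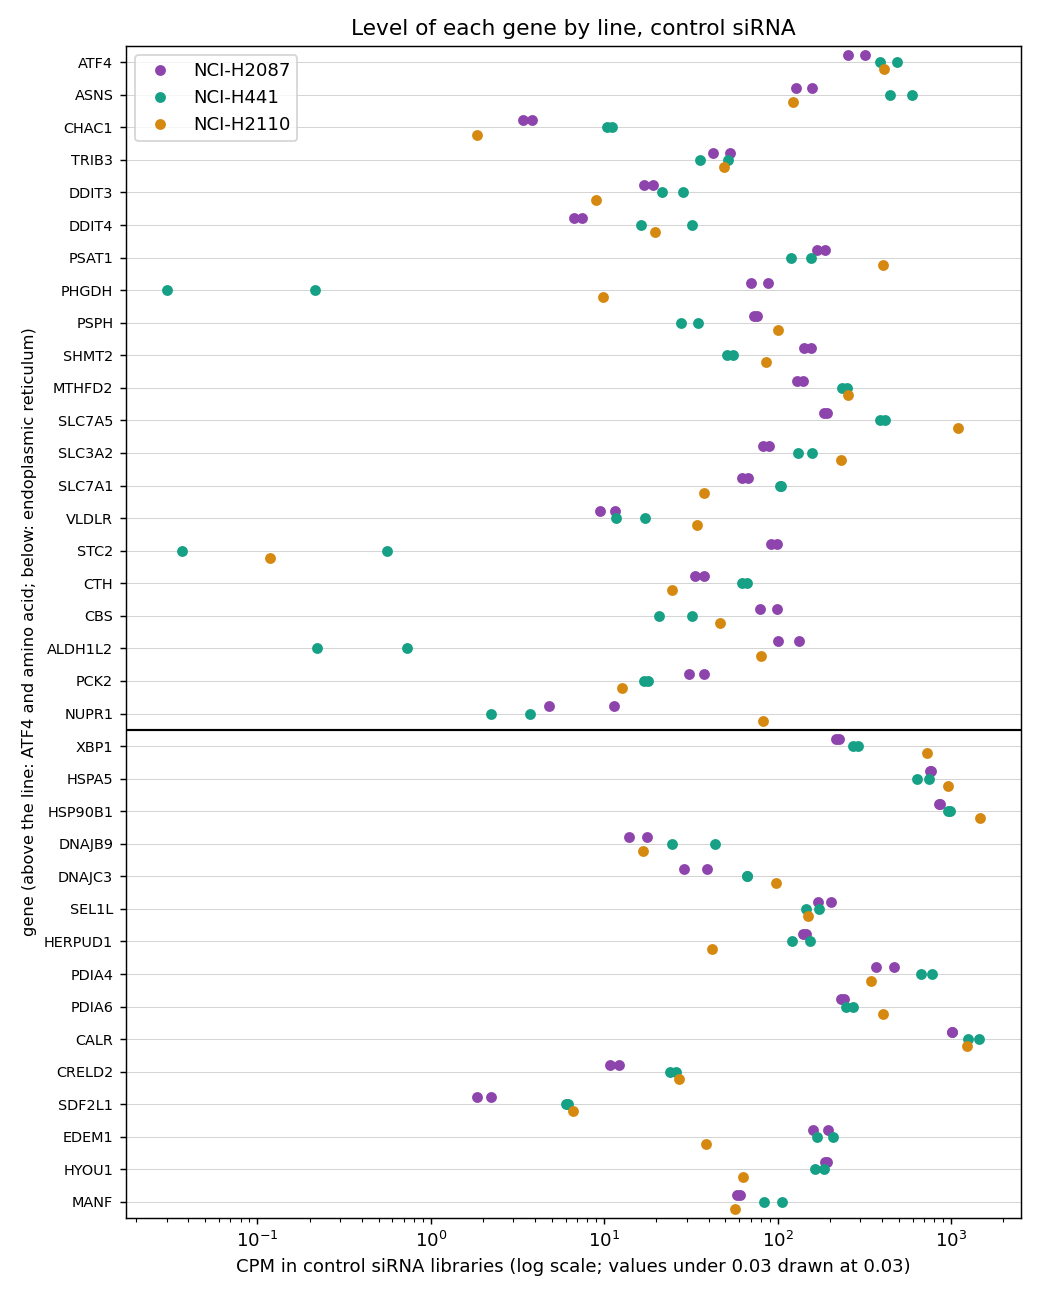
Level in CPM (log axis) of the 36 genes in the control siRNA libraries of each line (colours), 2 points for NCI-H2087 and NCI-H441 and 1 for NCI-H2110; values under 0.03 are drawn at 0.03. PHGDH, STC2 and ALDH1L2 are under 1 CPM in NCI-H441, and EDEM1, HERPUD1 and HYOU1 are lowest in NCI-H2110.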

How the data were processed

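The deposited table holds whole-number counts per Ensembl gene ID for the 10 libraries, not normalized. Per the labels, an RNeasy Plus kit gave the RNA and a Lexogen mRNA kit the libraries; hg19, Bowtie2 and RSEM 1.2.12 are named, without roles, in the submitters' processing notes. Whether the counts are rounded RSEM estimates, and whether strand was used, is not given in the sources used here. A table of reference names gave symbols for 51959 of 57736 IDs. Library totals were 18336672 to 25810934 counts.

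The counts went into edgeR 4.0.16 under R 4.3.3. Its filterByExpr on the 6 groups kept 17978 genes, and library sizes were scaled by TMM; levels are CPM on those sizes. Changes in NCI-H2087 and NCI-H441, their difference, and control cells of these lines came from a quasi-likelihood model with a mean per group (4 residual degrees of freedom). The common change and the comparison of NCI-H2110 with the other lines came from an additive model of line and siRNA (6). Tests were two-sided, with Benjamini-Hochberg adjustment over every gene tested; SE was taken from the F statistic. NCI-H2110 alone was compared by log2 CPM ratio (prior count 2), where either of its libraries had 50 counts or more. Scripts were tested on simulated data. DESeq2 1.42.0, limma-voom (limma 3.58.1), other scalings, no filter, the replicate block and leaving out each library were alternatives.

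Differences between replicates 1 and 2 in the control and p53 siRNA arms correlated across 9332 genes (r = 0.534 in NCI-H2087, r = 0.595 in NCI-H441), so numbers were taken as pairs, with 2 residual degrees of freedom in the blocked fit. Replicates were not copies (chi-square per gene of 18.5 to 54.0). Copies of these genes elsewhere in the genome held at most 35 counts over all libraries.

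The genes, lists and tests were chosen with earlier results of these data known. Genes were named if called in any contrast with or without the block, or among the 3 largest rises or falls in a line at a mean of at least 5 CPM; of the other lists, up to 4 called genes of smallest p per contrast. Comparisons between replicates, between numbered pairs and of non-overlapping groups were added after the data were seen. The level of the targeted gene is not reported here.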

Additional observations from a re-analysis of the deposited data

Results flagged for a closer look

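With the replicate block, the change in NCI-H2087 differed from that in NCI-H441 for 3 of the 36 genes by the test of the difference itself. The same test called 8.92% of all genes, so the list's share was near that of the genes at large. The NCI-H2087 change minus the NCI-H441 change was 1.40 log2 for DDIT4, 2.92 for STC2 and 0.73 for MANF. None of the 3 passed without the block. STC2 is at the floor in NCI-H441, with counts of 1 to 13, so its fitted value is not a measured fold.

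For 3 genes, both numbered pairs of a line went one way with p53 siRNA and the NCI-H2110 pair the other, with changes at least 1 log2 apart, and these differences were not tested. SDF2L1 was higher between both pairs of NCI-H2087 and lower in NCI-H2110, a difference of 1.25 log2. DDIT3 was higher between both pairs of NCI-H2087 and of NCI-H441 and lower in NCI-H2110, a difference of 1.81 log2 for NCI-H2087 and of 1.06 log2 for NCI-H441. In NCI-H2087 its replicate 1 libraries were nearly level, at 17.9 CPM with p53 siRNA against 16.9 CPM with control siRNA. Its NCI-H2087 change thus rests mainly on replicate 2. NUPR1 was higher between both pairs of NCI-H441 and lower in NCI-H2110, a difference of 1.56 log2. In NCI-H441 its replicate 1 libraries were low and nearly level, at 2.42 CPM with p53 siRNA against 2.23 CPM with control siRNA. NCI-H2110 had 1 library per arm.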

How the results depend on the processing

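The number of the 36 genes called in NCI-H2087, 1 as reported, was 2 with library totals, 7 with no filter on low counts, 2 with DESeq2, 0 with limma-voom and 6 with the replicate block, and from 0 to 9 when single libraries were left out: 0 without either control library, 9 without p53 siRNA replicate 1 and 2 without p53 siRNA replicate 2. Over all genes, the calls in NCI-H2087 were 1560 of 17978 as reported and 2700 of 29328 with no filter. They were 1923 with library totals, 2133 with DESeq2, 1613 with limma-voom and 4571 with the replicate block. With a single library left out they ran from 175 to 1100. For the common change, the number of the 36 genes, 0 as reported, was 3 with no filter and 1 with DESeq2. Over all genes it was 71 of 17978 as reported, 1123 of 29328 with no filter and 609 of 17978 with DESeq2. For the difference between lines, the number of the 36 genes was 0 as reported. It was 3 with no filter, 3 with the replicate block and from 0 to 2 with a library left out. Over all genes, 74 of 17978 were called there as reported, 810 of 29328 with no filter and 1604 of 17978 with the replicate block. With a library left out, from 0 to 90 were. NCI-H441 kept 0 of the 36 under every alternative. Between control cells of NCI-H2087 and NCI-H441, the number of the 36 genes, 19 as reported, ran from 9 to 24 with a library left out. For NCI-H2110 against the other lines, 26 as reported, it ran from 17 to 27. Over all 17978 genes these counts ran from 4693 to 7850 and from 7622 to 10702. With library totals the median of all genes in NCI-H2087 shifted to -0.21 log2, and the endoplasmic reticulum median with it, to -0.20 in NCI-H2087 and -0.13 in the common change. With a library left out, the ATF4 arm's median ran from -0.27 (without p53 siRNA replicate 2) to 0.71 (without p53 siRNA replicate 1) in NCI-H2087, where it was 0.27 as reported, from -0.027 to 0.23 in NCI-H441 and from -0.10 to 0.26 in the common change, and that of the endoplasmic reticulum arm from -0.025 to 0.14 in NCI-H2087 and from -0.20 to -0.077 in NCI-H441. In NCI-H2087, the sign of 17 of 21 changes in the ATF4 arm and 4 of 15 in the other turned without p53 siRNA replicate 2, and that of 3 to 5 of the 36 without any 1 of the other libraries. Among the named values, signs turned with a library left out for ALDH1L2 (-1.68 to 0.32), ASNS (-1.10 to 1.89), DDIT3 (-0.017 to 1.60) and TRIB3 (-0.27 to 1.76) in NCI-H2087, and for DDIT4 (-0.046 to 1.30) in NCI-H441. Of the other values of named genes, 821 stayed on their side of the threshold, 20 crossed into a call and 73 out of it. The replicate block also added calls in the lists of other pathway genes, in NCI-H2087 and in the difference between lines, and changed no other call of the 36 genes in the siRNA comparisons.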
